A study of Mus musculus with 6 samples.

Results

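The nuclear genes of oxidative phosphorylation were followed across 6 arrays of newborn mouse forearm bone, 3 from wild-type mice and 3 from littermates with the del175k mutation of Tnni2. Genes were taken by symbol: the subunit families Ndufa, Ndufb, Ndufc, Ndufs and Ndufv of complex I, Sdha to Sdhd of complex II, the Uqcr genes and Cyc1 of complex III, the Cox4 to Cox8 genes of complex IV, the Atp5 genes of complex V, and Cycs. This gave 74 genes of the 5780 with a gene symbol of their own, measured by 97 of 8997 probe sets. Of the 98 protein-coding genes of the RefSeq table that fit the same symbols, 24 were not analysed here, and 5 probe sets that named more than 1 gene were left out. Where a gene had several probe sets, the brightest stood for it, and 13 of the 15 such genes had the same direction of genotype difference on all of theirs. The other 2, Atp5l and Uqcrb, lay close to 0. Complex I was represented by 28 genes, complex II by 4, complex III by 9, complex IV by 13 (counting Ndufa4, which is now placed there) and complex V by 17. Cytochrome c itself (Cycs), the supercomplex factor Cox7a2l and the Ndufa4 paralog Ndufa4l2 made up the remaining 3.

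All mice were of strain 129sv and newborn, and each array held RNA from radii and ulnae. Tnni2 encodes the inhibitory troponin subunit of fast skeletal muscle. The labels name the mutants as del175k without saying whether 1 or both copies carried it. They speak of 3 pairs of mice, without tying the replicate numbers to those pairs or saying whether an array held 1 animal. P-values therefore measure only how far these arrays scatter, part of which may be technical. Values are intensities, that is, the summarised brightness of a probe set on a linear scale, and differences are given as log2 of mutant minus wild-type. Depth has no counterpart on arrays, so the number of arrays limits the precision.

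Oxidative phosphorylation takes place in the inner mitochondrial membrane. Complexes I and II pass electrons from NADH and succinate to ubiquinone, complex III passes them on to cytochrome c, and complex IV hands them to oxygen. The proton gradient built by complexes I, III and IV drives ATP synthesis by complex V. Most subunits are encoded in the nucleus, while the catalytic subunits of complex IV and the membrane subunits that pump protons in complex I come from mitochondrial DNA. Skeletal muscle is rich in these complexes and has its own forms of some complex IV subunits.

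Array medians lay between 39.6 and 48.4, lowest on wild-type replicate 1, whose median probe set was at -0.25 on the log2 scale from its own mean over the arrays. Mean Tnni2 intensity was 175 ± 78.6 for wild-type and 153 ± 39.2 for mutant arrays (SD, n = 3), and its level does not check the genotype labels, since the mutation need not change the amount of transcript. The tissue label was met by bone and cartilage markers: 6 of 9 osteoblast genes and 6 of 6 cartilage genes were measured, and the summed intensity of the osteoblast genes was 13392 to 17036 on the wild-type arrays, against 15743 to 17434 on the mutant arrays. All 10 skeletal muscle markers were measured too, so the samples also held muscle RNA. Their summed intensity was 3798, 6072 and 7883 on wild-type replicates 1 to 3 and 5257, 5456 and 6829 on mutant replicates 1 to 3. In such mixed tissue, fewer cells of a type and less RNA per cell cannot be told apart. No measured member lay under 20 on all arrays of a group, and 5 members had at least 1 value under 20. Every probe set of the table reached 20 on at least 3 of the 6 arrays, so dimmer genes could not appear.

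No gene of the 5 complexes was called different between mutant and wild-type bone, and nor was any other probe set of the table. The log2 differences of the 74 genes ran from -0.48 (Atp5g1) to 0.40 (Cox7a2l), with a median of -0.02, that is, folds of 0.716 to 1.32. Of the 74, 31 had higher and 43 had lower means in the mutants. With limma 0 of 74 passed at an adjusted p of 0.05 (lowest 0.708), against 0.0% of all probe sets, and 0 passed without limma's moderated variances. At an unadjusted p under 0.05 there were 0 higher and 0 lower members, beside 5.74% of all probe sets higher and 1.7% lower. The groups failed to overlap with mutants on top in 0 members, and with mutants underneath in 2 members, Ndufa11 and Ndufv3, beside 9.18% and 3.89% of all probe sets. For Ndufa11 they did overlap on its other, dimmer probe set. The standard errors of the members ran from 0.19 to 0.57, against differences of at most 0.48 in size. A share of 58.1% of members was lower against 43.3% of all probe sets. This share was 74.3% after quantile normalization and 73.0% after median centring, where all probe sets were at 52.4% and 51.7%. Single arrays decided the split: leaving out wild-type replicate 1 put 63 of 74 members lower, and weighting the arrays, which gave that array the least weight, put 66 lower. Leaving out wild-type replicate 3 put 23 lower, and leaving out mutant replicate 1 put 26 lower.

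The median log2 difference was -0.04 in complex I (10 genes higher, 18 lower), -0.02 in complex II (2 and 2), -0.01 in complex III (4 and 5), -0.04 in complex IV (5 and 8) and 0.005 in complex V (9 and 8). The median over all probe sets was 0.04. The differences between complexes were not tested. The sign of the medians depended on single arrays: without wild-type replicate 1 all 5 lay between -0.18 and -0.14, and without wild-type replicate 3 between 0.071 and 0.19.

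**Figure D1:**
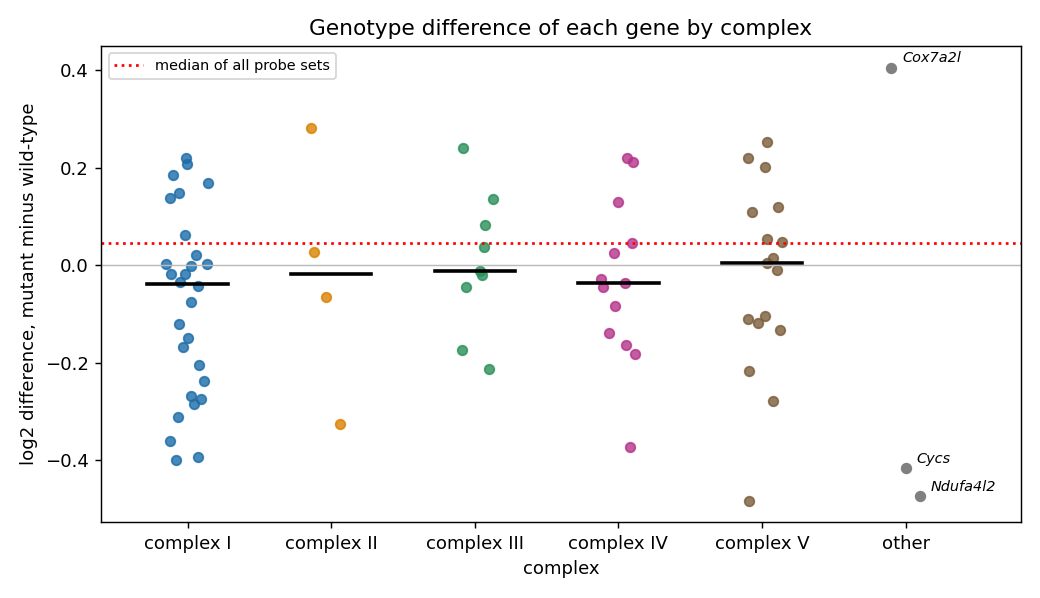
Log2 difference (mutant minus wild-type, vertical axis) of each gene by complex; points are genes, black bars are medians and the dotted line is the median of all probe sets, 0.04. The 5 medians lie between -0.04 and 0.005, and the widest points are Cox7a2l at 0.40 and Atp5g1 at -0.48.

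Complex I, the NADH dehydrogenase that takes in most of the electrons, had the member of smallest p. Ndufa11, an accessory subunit of the membrane arm, was at 50.8, 49.8 and 62.8 for wild-type, against 38.7, 38.0 and 47.2 for the mutants. Its highest mutant value was below its lowest wild-type value, with a log2 difference of -0.40 ± 0.20 (SE, limma adjusted p = 0.708). On its other, dimmer probe set the wild-type arrays were at 52.2, 43.0 and 57.0 and the mutant arrays at 38.9, 41.1 and 43.5 (-0.29). There mutant replicate 3 exceeded wild-type replicate 2, so the groups overlapped. Ndufb7, another membrane-arm accessory subunit, was at 67.4, 64.1 and 95.2 on the wild-type arrays, against 40.4, 56.3 and 79.9 on the mutant arrays, so its groups overlapped (-0.39 ± 0.28, adjusted p = 0.747). Ndufv3, named after its values were seen, was at 38.1, 45.0 and 36.6 against 33.7, 33.5 and 36.4, with the highest mutant value just under the lowest wild-type value (-0.21). On the other side lay the accessory genes Ndufa6, at 31.3 ± 5.32 for wild-type, against 35.9 ± 3.83 for the mutants (0.21 ± 0.21, adjusted p = 0.801), and Ndufa7, at 19.5 ± 3.47 and 21.9 ± 0.829 (0.18 ± 0.21, adjusted p = 0.828). Ndufa7 was under 20 on 2 wild-type arrays and reached 20 on 3 arrays only through the mutants. How background was corrected at such low values is not given in the sources used here.

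The core subunits of complex I are those shared with the bacterial enzyme. The nuclear ones form the part that holds the flavin and the iron-sulphur clusters, and the other nuclear subunits are accessory. This division was added after values were seen. The 6 core genes had a median of 0.00 (3 higher, 3 lower) and the 22 accessory genes a median of -0.10 (7 higher, 15 lower). On wild-type replicate 1 the core genes stood at -0.36 and the accessory genes at -0.12 from their own means. Without that array the medians were -0.13 and -0.16. Without wild-type replicate 3 they were 0.20 and 0.03, and after median centring -0.06 and -0.15, so the gap between them narrowed or widened with the array left out. Ndufs1, the large iron-sulphur subunit, was among the low core genes there: 24.9, 34.7 and 45.1 on the wild-type arrays, against 40.2, 32.6 and 40.5 on the mutant arrays, low on the first wild-type array.

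Complex II, succinate dehydrogenase, also belongs to the citric acid cycle and has no mitochondrially encoded subunit. The log2 differences of its catalytic subunits lay on opposite sides of 0, and neither passed the test. Sdha, the flavoprotein, was at 90.8, 130 and 157 for wild-type, against 144, 151 and 154 for the mutants (0.28 ± 0.23, limma adjusted p = 0.77). The mutant values lay close together, inside the wild-type range, and the difference was 0.06 without wild-type replicate 1 and 0.46 without wild-type replicate 3. Sdhb, the iron-sulphur subunit, was at 48.3, 51.8 and 85.4 against 39.2, 38.8 and 71.4 (-0.33 ± 0.31, adjusted p = 0.79), with replicate 3 highest in both groups. Without wild-type replicate 3 it was at -0.07, and without mutant replicate 3 at -0.62. The membrane anchors Sdhc and Sdhd were at -0.07 and 0.03.

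Complex III, the cytochrome bc1 complex, had the narrowest range of differences among the complexes on the brightest probe sets, from -0.21 to 0.24 over its 9 genes. Uqcrh, the hinge protein near cytochrome c1, was at 102, 161 and 222 on the wild-type arrays, against 163, 148 and 250 on the mutant arrays (0.24 ± 0.31, limma adjusted p = 0.85). Its arrays spread over more than its genotype difference, lowest on wild-type replicate 1 and highest on the replicates 3. Of the small subunits, Uqcr10 was at 0.14, Uqcr11 at -0.17 and Uqcrq at -0.21 (adjusted p = 0.875, 0.834 and 0.856). The other, dimmer probe set of Uqcr11 was at -0.51, outside the range given above, and the mean of its probe sets at -0.34. Cyc1, which carries the haem of cytochrome c1, was at 125 ± 32.5 and 123 ± 32.6 (SD, n = 3), a difference of -0.02 ± 0.26.

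Complex V, the ATP synthase, held the gene with the lowest log2 difference on the brightest probe sets. Atp5g1 is 1 of 3 genes for the c subunit of the membrane rotor, which differ in their targeting peptides and give the same mature protein. It was at 77.6, 76.7 and 145 for wild-type, against 55.4, 58.3 and 98.1 for the mutants (-0.48 ± 0.32, limma adjusted p = 0.729). The groups overlapped, since mutant replicate 3 exceeded wild-type replicates 1 and 2. Leaving out wild-type replicate 3 gave -0.18, and leaving out mutant replicate 3 gave -0.74. Atp5g2, for the same protein, was at 196 ± 47.1 and 227 ± 47.7 (0.22 ± 0.25, adjusted p = 0.828), and Atp5g3 was at 0.01. In the peripheral stalk, Atp5pb (subunit b) was at 0.25 ± 0.24 and Atp5h (subunit d) at -0.28 ± 0.24 (adjusted p = 0.795 and 0.773). The 5 genes of the F1 part, which includes the central stalk, had a median of 0.11 (4 higher, 1 lower). The 12 of the peripheral stalk and membrane part had a median of -0.06 (5 higher, 7 lower). This division was also made after values were seen. Without wild-type replicate 1, the F1 median turned to -0.05 and the other was -0.17. Without wild-type replicate 3 they were 0.21 and 0.18.

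The replicate number went with far more of the spread of these genes than the genotype did. Taken as separate medians over the members, genotype held 7.05% and the number 77.1% of the sum of squares over the 6 arrays. Over all probe sets these medians were 17.2% and 38.9%. The number has more levels than the genotype and so takes a larger share even without an effect, which makes all probe sets the measure to compare with. In 63 of the 74 genes (85.1%), replicate 3 was the highest array in both groups, beside 23.7% of all 8997 probe sets. The count was 22 of 28 in complex I, 4 of 4 in complex II, 9 of 9 in complex III, 11 of 13 in complex IV and 16 of 17 in complex V. In the median member, wild-type replicate 3 exceeded the mean of the other wild-type arrays by 0.49 on the log2 scale and mutant replicate 3 exceeded the other mutant arrays by 0.53, where the median probe set showed 0.17 and 0.056. Both of these gaps were larger than the genotype difference in 62 of 74 members (83.8%), beside 39.3% of all probe sets. The count of members with replicate 3 highest in both groups was 56 of 74 after median centring (17.9% of all probe sets) and 50 of 74 after quantile normalization (16.4%). The labels do not say what a shared replicate number stands for, and what set the replicates 3 apart was not tested.

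**Figure D2:**
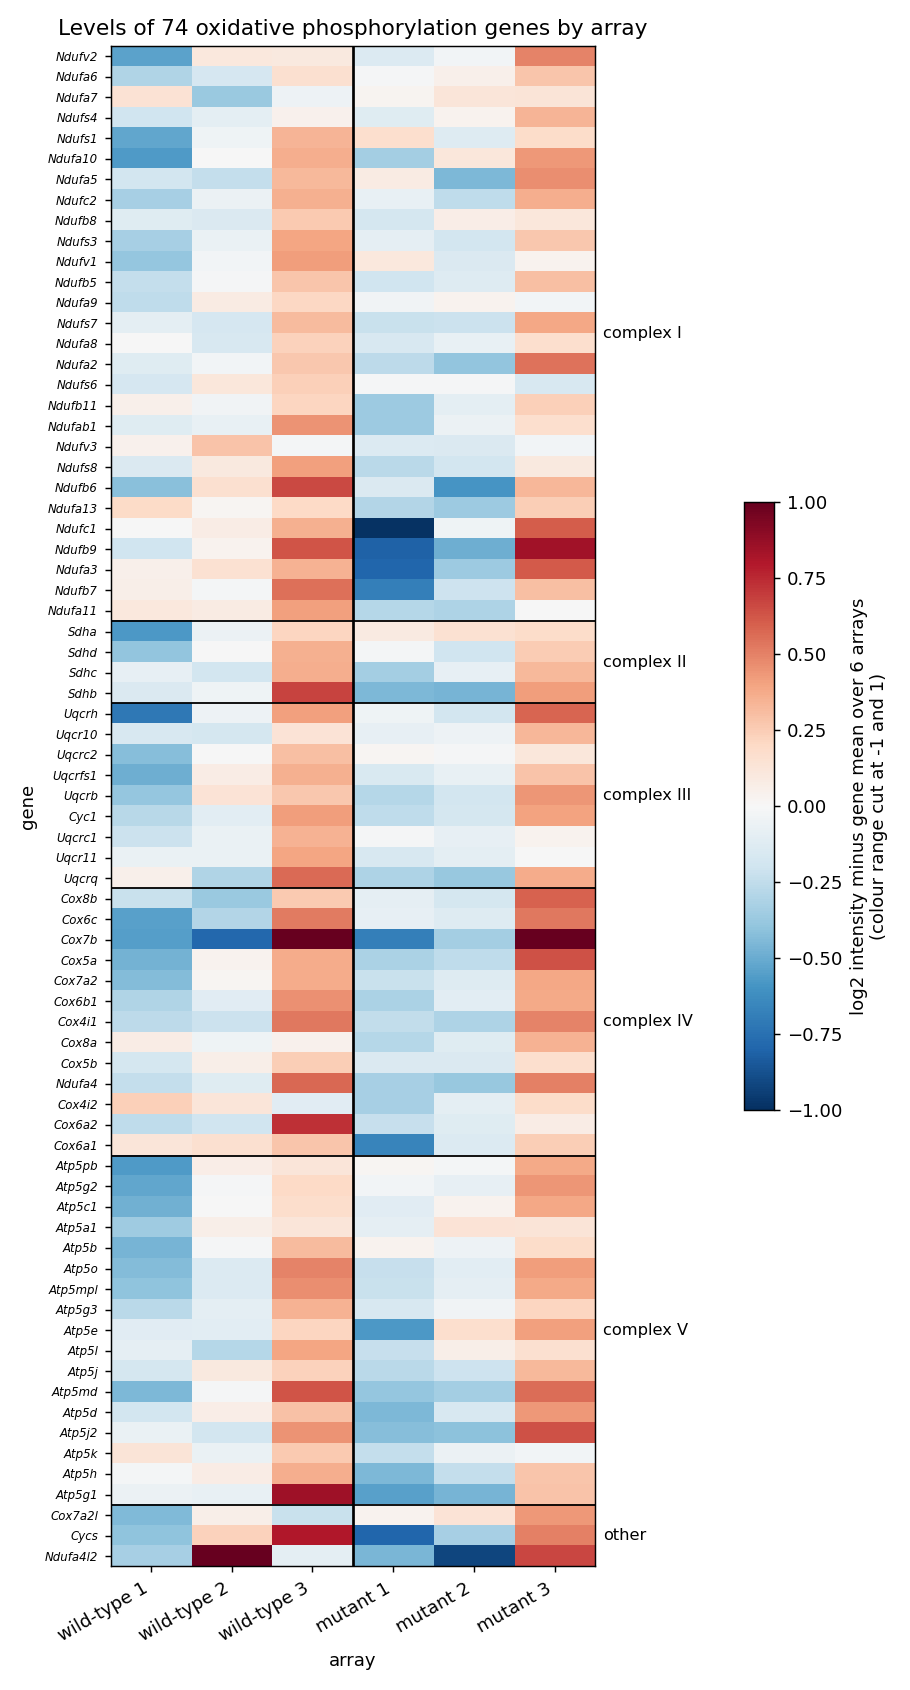
Log2 intensity of the 74 genes (rows, grouped by complex and ordered by genotype difference) on the 6 arrays (columns), as the distance from each gene's mean over the arrays; red is higher, blue lower. The columns of wild-type replicate 3 and mutant replicate 3 are red for most genes, and replicate 3 was the highest array of both groups in 63 of 74.

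Measured from each gene's own mean, the median of the 74 genes stood at -0.23, -0.03 and 0.35 on wild-type replicates 1 to 3 and at -0.22, -0.13 and 0.33 on mutant replicates 1 to 3 (log2). All probe sets stood at -0.25, 0.056 and 0.067, and at 0.016, 0.0047 and 0.077. Relative to all probe sets, the members were therefore near 0 on wild-type replicate 1 (0.016) and lowest on mutant replicate 1 (-0.24). Complex IV had the widest spread, from -0.29 on mutant replicate 1 to 0.38 on mutant replicate 3, and complex I the narrowest, from -0.17 to 0.32.

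The steepest case was Cox7b, a small X-linked subunit of complex IV, named after its values were seen. It was at 37.8, 32.2 and 123 on the wild-type arrays, against 34.5, 43.9 and 129 on the mutant arrays. Both replicates 3 were about as high as each other and far above the other 4 arrays, by 1.81 and 1.73 on the log2 scale, while the genotype difference was 0.13 ± 0.57 (SE). Cox6c, another small membrane subunit, was at 84.5, 101 and 176 and at 116, 112 and 178 (0.21 ± 0.31, limma adjusted p = 0.864). Cox4i1, the ubiquitous form of the largest nuclear subunit, was at 153, 157 and 263 and at 154, 148 and 258 (-0.04 ± 0.30). Ndufa4, which joins complex IV late in its assembly, was at 129, 140 and 227 and at 121, 117 and 217 (-0.14 ± 0.31). In all 4 genes each replicate 3 lay above all 4 other arrays.

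**Figure D3:**
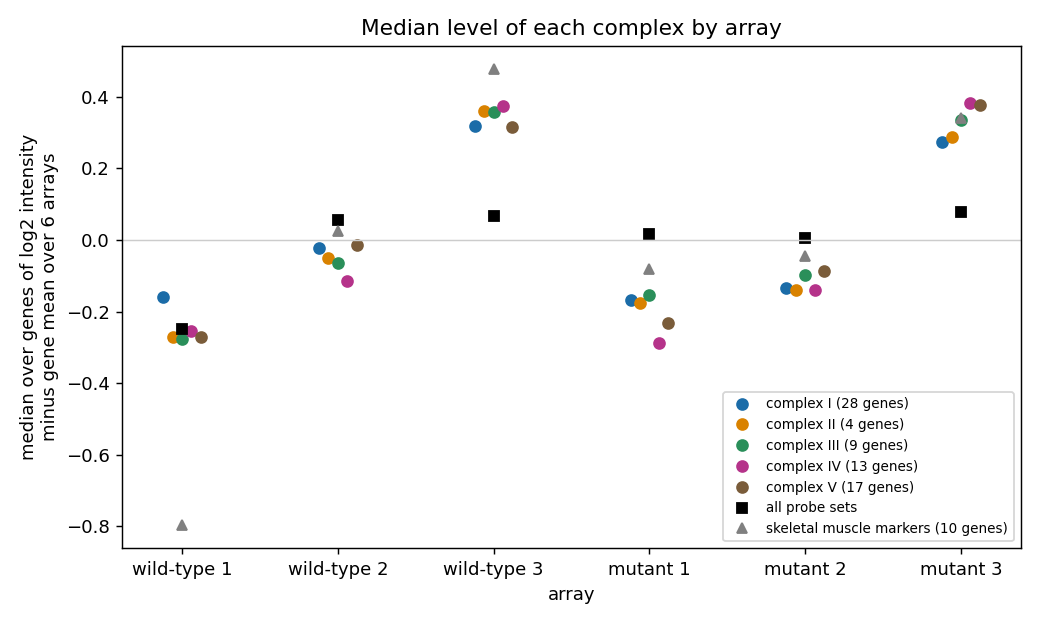
Median level of each complex on the 6 arrays (log2 intensity minus each gene's mean over the arrays), beside all probe sets (squares) and 10 skeletal muscle markers (triangles). All 5 complexes are highest on the replicates 3, from 0.27 to 0.38, while all probe sets are at 0.067 and 0.077 there.

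Markers of skeletal muscle were also highest on these arrays. The median of the 10 markers stood at -0.80, 0.03 and 0.48 on wild-type replicates 1 to 3 and at -0.08, -0.05 and 0.34 on the mutants, and replicate 3 was highest in both groups in 8 of 10. The order differed at the low end: wild-type replicate 1 was by far the lowest for muscle, and for the members it was level with mutant replicate 1 (-0.23 and -0.22). In the osteoblast list replicate 3 was highest in both groups in 3 of 6 genes and in the cartilage list in 1 of 6. The median of the 5 measured epidermal markers was high on wild-type replicates 1 and 2 (2.53 and 2.18) and low on both replicates 3 (-1.62 and -1.81), but also low on mutant replicate 1 (-1.52), with mutant replicate 2 between (0.78). Lor, a cornified envelope protein, was at -2.20 ± 0.90 and Krtdap at -1.94 ± 0.98 (limma adjusted p = 0.667 and 0.708). The summed intensity of the 5 epidermal markers was 37.5 to 838 for wild-type, against 41.9 to 250 for the mutants. The 2 measured erythroid genes of 5 ran the other way among the mutants, with a median of 1.19 on replicate 1, -0.10 on replicate 2 and -0.65 on replicate 3, and stood at 0.17, -0.86 and 0.25 on wild-type replicates 1 to 3. Alas2, the first enzyme of haem synthesis in red cells, was at 0.73 ± 0.31 and the anion exchanger Slc4a1 at -0.15 ± 0.63 (limma adjusted p = 0.667 and 0.966). Of the other marker lists, the muscle genes Ttn and Neb were at 0.64 and 0.53 and the bone genes Ibsp and Alpl at 0.36 and 0.14. The cartilage genes Col10a1 and Col9a1 were at 0.37 and 0.32, and none of these passed. They are the genes of smallest p in their lists, and each was lowest on wild-type replicate 1. In the whole lists, 6 muscle genes were higher and 4 lower, 5 bone genes higher and 1 lower, and 5 cartilage genes higher and 1 lower. None of the 4 brown adipocyte markers was analysed here. The part of these cell types in the order of the arrays was not tested.

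Other gene families of the cell's basic machinery, looked at after values were seen, had smaller shares, as a description. Replicate 3 was highest in both groups in 13 of 34 mitochondrial ribosomal protein genes (38.2%), in 26 of 48 cytosolic ribosomal protein genes (54.2%) and in 18 of 34 proteasome subunit genes (52.9%). Among probe sets at least as bright as the median member, an intensity of 80.2, it was 32.8%, and among dimmer ones 20.1%. The difference between families was not tested.

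Only 11 of the 74 genes did not have replicate 3 highest in both groups. They were Ndufa7, Ndufa9, Ndufs6, Ndufv1, Ndufv2 and Ndufv3 of complex I, Cox4i2 and Cox8a of complex IV, Atp5a1 of complex V, Cox7a2l and Ndufa4l2. All of the flavoprotein subunits of the Ndufv family are among them. Cox8a, Cox4i2 and their sister forms are described next.

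Complex IV carries tissue forms of several nuclear subunits, and muscle has its own form of subunits 6a, 7a and 8. Cox6a2 and Cox8b, the heart and skeletal muscle forms, were measured together with the ubiquitous Cox6a1 and Cox8a. The muscle form Cox7a1 was not analysed here, and its ubiquitous partner Cox7a2 was at 36.6, 49.9 and 63.8 against 42.3, 45.2 and 64.3 (0.03 ± 0.26). The regions around their start sites, 250 bases before to 50 after, are shown to set the motifs of ubiquitous forms beside those of a muscle form. They are from RefSeq, build GRCm38.p6, minus strand, printed 5′ to 3′, for the members found in that table: Cox6a1 (chr5:115348909-115349208), Cox8a (chr19:7217567-7217866) and Cox8b (chr7:140900397-140900696). Cytochrome c (Cycs, chr6:50566520-50566819) is added as a textbook target of NRF1, a factor that switches on nuclear genes of the mitochondria. Capitals mark matches on either strand to 6 short motifs: GCATGCGC (the NRF1 core), CCGGAAG (the core of ETS factors such as GABP), AAGATGGC (YY1), AAGGTCA (the ERR half-site), CAGCTG (an E-box bound by muscle factors) and TATAAA (the letters of a TATA box). None of these motifs contains another. The NRF1 core overlaps its own reverse complement where the longer palindrome occurs.
Cox6a1: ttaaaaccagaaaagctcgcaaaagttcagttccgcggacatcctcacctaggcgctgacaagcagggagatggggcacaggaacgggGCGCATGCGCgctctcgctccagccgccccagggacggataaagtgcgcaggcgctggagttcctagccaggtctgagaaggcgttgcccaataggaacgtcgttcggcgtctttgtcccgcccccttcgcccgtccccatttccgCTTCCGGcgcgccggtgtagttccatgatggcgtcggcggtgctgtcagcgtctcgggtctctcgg
Cox8a: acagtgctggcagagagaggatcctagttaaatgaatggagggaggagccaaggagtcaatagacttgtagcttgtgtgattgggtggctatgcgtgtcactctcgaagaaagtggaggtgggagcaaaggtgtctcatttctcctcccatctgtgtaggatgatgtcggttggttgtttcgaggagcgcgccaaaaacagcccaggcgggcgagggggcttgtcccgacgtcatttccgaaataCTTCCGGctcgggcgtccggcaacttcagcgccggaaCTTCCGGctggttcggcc
Cycs: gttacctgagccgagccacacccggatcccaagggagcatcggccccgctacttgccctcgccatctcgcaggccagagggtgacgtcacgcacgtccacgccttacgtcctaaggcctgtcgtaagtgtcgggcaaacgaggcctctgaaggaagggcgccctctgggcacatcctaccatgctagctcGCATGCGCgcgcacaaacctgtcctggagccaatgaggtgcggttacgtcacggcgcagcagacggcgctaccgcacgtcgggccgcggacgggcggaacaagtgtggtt
Cox8b: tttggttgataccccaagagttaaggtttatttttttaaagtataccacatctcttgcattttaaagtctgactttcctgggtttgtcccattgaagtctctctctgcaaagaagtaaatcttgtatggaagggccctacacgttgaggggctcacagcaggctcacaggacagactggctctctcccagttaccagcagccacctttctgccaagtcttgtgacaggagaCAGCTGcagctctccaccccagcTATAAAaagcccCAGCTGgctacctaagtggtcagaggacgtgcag

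The windows of Cox6a1, Cox8a and Cycs held NRF1 or ETS motifs and no TATAAA, and that of Cox8b held CAGCTG and TATAAA and neither of the former. Of the 9 complex IV genes with a window, 1 held the NRF1 core (Cox6a1). The ETS core was in 3 of these 9, Cox6a1 and Cox8a among them, so most held neither. In Cox8b the TATAAA and 1 of the 2 CAGCTG lay downstream of the annotated start, so this TATAAA is not at the usual place of a TATA box. In Cox8a 1 of the 2 ETS motifs lay downstream too. GC content was 63.0% in Cox6a1, 56.0% in Cox8a, 65.0% in Cycs and 48.3% in Cox8b. Promoter windows were found for 59 of the 74 genes, 64 windows in all. The NRF1 core was in 11 of the 64 (17.2%) beside 2.71% of all 32851 windows, the ETS core in 17 (26.6%) beside 8.86%, and the YY1 motif in 10 (15.6%) beside 2.75%. The ERR half-site was in 5 (7.81%) beside 4.72%, TATAAA in 8 (12.5%) beside 13.6%, and CAGCTG in 4 (6.25%) beside 16.3%. The YY1 motif was found in 7 of 25 complex I genes and 3 of 15 complex V genes, and in 0 of 9 of complex IV. The ERR half-site was in 4 of 15 complex V genes and 0 of 25 complex I genes. A match is a run of letters, not a bound site, and base composition was not matched between members and other genes.

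None of these 4 genes passed the test between genotypes. Cox6a2 was at 40.2, 41.7 and 79.3 on the wild-type arrays, against 40.8, 44.1 and 50.6 on the mutant arrays, a log2 difference of -0.18 ± 0.28 (limma adjusted p = 0.874). Wild-type replicate 3 was alone at the top, and the other 5 arrays lay between 40.2 and 50.6. Cox6a1 was at 93.6, 96.0 and 104 for wild-type, against 54.3, 77.9 and 102 for the mutants (-0.37 ± 0.25, adjusted p = 0.734). Its wild-type values were close together, and mutant replicate 1 was the low one. Cox8b was at 22.5, 20.3 and 31.5 and at 24.7, 23.2 and 39.6 (0.22 ± 0.27, adjusted p = 0.837), dim on all arrays. Cox8a was at 120, 110 and 117 and at 93.1, 104 and 144 (-0.05 ± 0.22, adjusted p = 0.97).

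**Figure D4:**
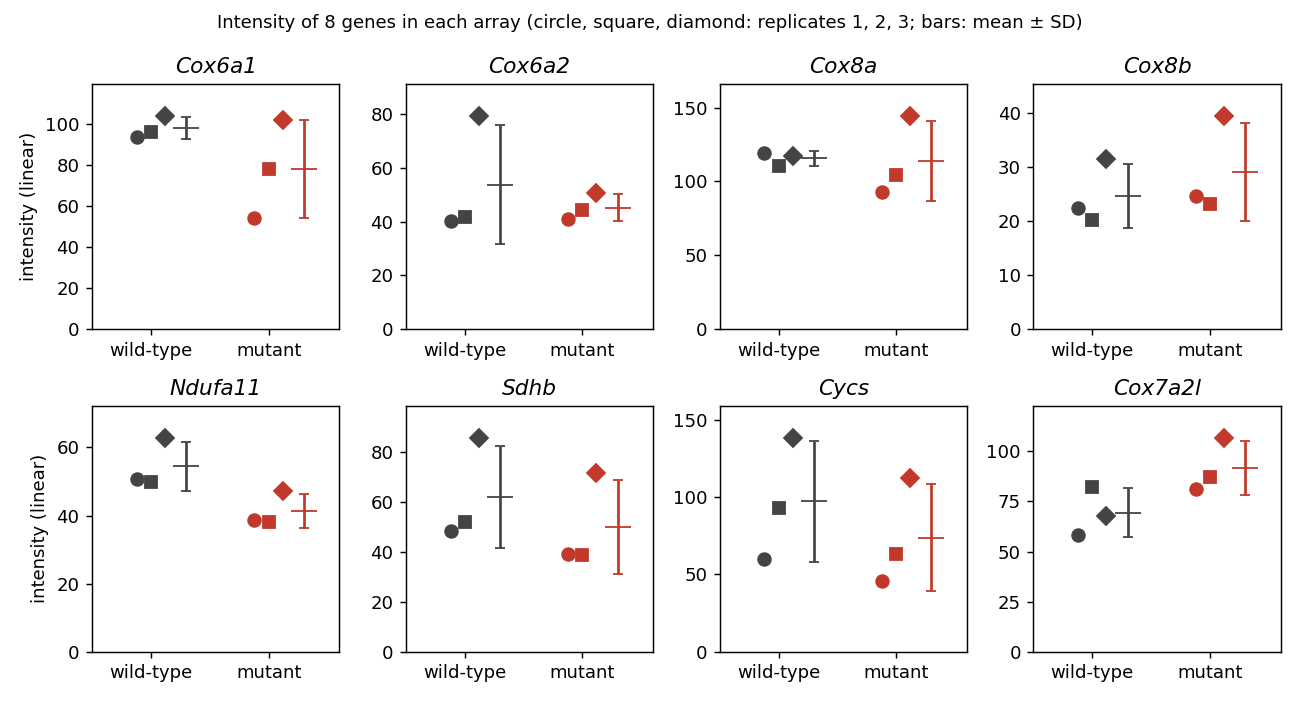
Intensity (linear scale, from 0) of 8 genes on each array, wild-type in grey and mutant in red; circles, squares and diamonds are replicates 1, 2 and 3, and bars give the mean ± SD of 3 arrays. Groups overlap in all but Ndufa11, where they overlap on its other probe set, not shown. The diamond is the highest point of both groups in all but Cox8a and Cox7a2l.

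The log2 ratio of a muscle form to its ubiquitous form within an array does not depend on the overall brightness of that array. Levels of different probe sets cannot be compared, so it is the change of the ratio between groups that has meaning. For Cox6a2 over Cox6a1 the ratio was -1.22, -1.20 and -0.39 on the wild-type arrays, against -0.41, -0.82 and -1.01 on the mutant arrays. The replicates 3 went opposite ways, at the top of the wild-type and the bottom of the mutants. The means were -0.94 and -0.75, a difference of 0.19 (exact two-sided permutation p = 0.6, adjusted over 2 ratios 0.6). It was -0.03 with array weights, 0.02 without mutant replicate 1 and 0.46 without wild-type replicate 3. For Cox8b over Cox8a the ratio was -2.41, -2.44 and -1.89 against -1.92, -2.17 and -1.87, a difference of 0.27 (exact permutation p = 0.3, adjusted 0.6). It was 0.07 with array weights and 0.44 without wild-type replicate 3. The smallest p that 3 arrays against 3 allow is 0.1. Slow-fibre muscle genes, which mark the more oxidative fibres, were higher in 4 of 6 and lower in 2 (Tnni1 at -0.05 and Tpm3 at -0.19). Those of smallest p were Myh7 at 0.71 ± 0.33 and Myl3 at 0.68 ± 0.32 (limma adjusted p = 0.68 and 0.686), and 0 passed. Both were lowest on wild-type replicate 1, where the summed muscle markers were lowest too. Myl3 was under 20 on 2 wild-type arrays and reached 20 on 3 arrays only through the mutants.

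The remaining members have regulatory or bridging roles. Cycs encodes the cytochrome c that shuttles electrons between complexes III and IV and also triggers apoptosis when released. It was at 60.3, 93.2 and 138 for wild-type, against 46.0, 63.2 and 113 for the mutants (-0.42 ± 0.38, limma adjusted p = 0.783). The groups overlapped, with replicate 3 highest in both, and the difference ran from -0.77 when mutant replicate 3 was left out to -0.12 when wild-type replicate 3 was. Cox7a2l, which helps to join complex III to complex IV in supercomplexes, was at 58.3, 82.3 and 67.8 against 81.2, 87.2 and 107 (0.40 ± 0.22, adjusted p = 0.708). Wild-type replicate 2 exceeded mutant replicate 1 by a narrow margin, so the groups overlapped at that point alone.

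A pair of members is known to respond to oxygen. Ndufa4l2, a target of hypoxia-inducible factors that restrains respiration, was at 35.7, 99.7 and 42.0 on the wild-type arrays, against 32.8, 23.8 and 71.5 on the mutant arrays (-0.47 ± 0.46, limma adjusted p = 0.797). It was high on wild-type replicate 2 and mutant replicate 3 and followed neither the genotype nor the order of the other members. Without wild-type replicate 2 its difference was -0.02. Cox4i2, the oxygen-responsive form of Cox4, was at 20.1 ± 2.44 and 18.1 ± 3.25 (SD, n = 3; -0.16 ± 0.21, adjusted p = 0.85), under 20 on 3 of the 6 arrays. Its values lay at the level that the table's dimmest genes had to reach.

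The machinery around the complexes gave 0 calls as well. None of the 13 mitochondrially encoded subunits was analysed here. Of 40 assembly factors 10 were measured, 4 higher and 6 lower (median -0.09), with Lrpprc, which stabilises mitochondrial mRNAs, at 0.31 ± 0.24 and Coa3, needed for Cox1 synthesis, at -0.26 ± 0.27 (limma adjusted p = 0.764 and 0.811). Of 24 regulators of mitochondrial biogenesis 6 were measured, 3 higher and 3 lower. Gabpa, the DNA-binding subunit of the ETS factor GABP, was at 15.4, 20.4 and 17.9 for wild-type, against 23.8, 22.9 and 25.7 for the mutants (0.44 ± 0.20, adjusted p = 0.672). Its lowest mutant value exceeded its highest wild-type value, at a brightness near the table's lower limit. Gabpa was under 20 on 2 wild-type arrays and reached 20 on 3 arrays only through the mutants. Its lack of overlap is therefore not read as a result. Pprc1, a coactivator related to Ppargc1a, was at 32.6 ± 9.40 and 23.4 ± 3.54 (-0.45 ± 0.25, adjusted p = 0.709).

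Of 13 carriers and coupling genes 8 were measured, 4 higher and 4 lower. Atpif1, the inhibitor that stops complex V from running backwards, was at 241, 217 and 237 against 161, 168 and 238 (-0.31 ± 0.22, limma adjusted p = 0.742), and mutant replicate 3 stood with the wild-type. Vdac1, the outer membrane pore, was at 0.24 ± 0.28 (adjusted p = 0.834). Of 15 genes of ubiquinone synthesis 4 were measured, 3 higher and 1 lower. Coq8a, an atypical kinase of that pathway, was at 40.2, 50.6 and 40.0 on the wild-type arrays, against 63.6, 61.6 and 52.5 on the mutant arrays (0.45 ± 0.20, adjusted p = 0.674). Its groups did not overlap. Over the 28 genes measured in these 4 lists, the mutants lay wholly above the wild-type in 3 (10.7%), Gabpa, Coq8a and the transcription factor Yy1, beside 9.18% of all probe sets, a share near the background. Gabpa counts here although it met the table's lower limit only through the mutants. Yy1, named after its values were seen, was at 32.3, 42.6 and 46.7 against 49.1, 48.8 and 47.9 (0.28 ± 0.21, adjusted p = 0.754). Coq10a was at 0.23 ± 0.25 (adjusted p = 0.818).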

How the data were processed

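The 6 arrays held biotin-labelled cDNA made with Affymetrix whole-transcript kits from RNeasy-purified RNA, per the labels' protocols. The authors deposited 1 linear intensity per probe set. How they corrected background, summarised probes and scaled arrays is not given in the sources used here. Gene symbols came from the platform annotation of 2016, and 0 member symbols needed updating through Entrez identifiers in the RefSeq table of GRCm38.p6. Log2 was taken of the intensities, unscaled and unfiltered. Group means were compared over all 8997 probe sets with limma 3.58.1 in R 4.3.3 (lmFit, eBayes), two-sided, with Benjamini-Hochberg adjustment over all of them and a threshold of 0.05. The fit was tested on simulated data. Ratios were tested by exact permutation of the 6 arrays (SciPy 1.17.1). In each complex the text names the 2 genes of smallest p per direction, then fixed tissue forms, and in each other list the 2 of smallest p. The members, lists and tests were chosen with earlier results of these data known. Alternatives were other scalings, a filter on the dimmest 25%, robust variances with a trend on intensity, a block for the replicate number, weights per array, the mean of a gene's probe sets, another threshold or statistic, another place for Ndufa4, and each array left out in turn. Alternatives added after seeing the data left out both replicates 3 and joined the block to median centring.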

Additional observations from a re-analysis of the deposited data

How the results depend on the processing

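The count of members called by limma was 0 under all 17 alternatives run. The count of members with an unadjusted p under 0.05 was highest with array weights (7) and without mutant replicate 3 (5). Of all 8997 probe sets, 1412 and 838 had such a p, both larger shares than among the 74 members. At the adjusted threshold limma called 4 and 15 of all probe sets there. The signs of the complex medians changed with single arrays. That of complex IV, -0.04 in the main fit, ran from -0.27 with array weights to 0.19 without wild-type replicate 3. Moves of the medians stayed below the spread between arrays. Leaving out an array could hardly exceed that measure, so no stability is concluded from it.

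Directions that turned were all of uncalled genes. With array weights, the Cox6a2 to Cox6a1 ratio was at -0.033, over arrays left out 0.023 to 0.59, and Sdhd was at -0.25, Uqcrh -0.17, Cox8b -0.013, Cox6c -0.16, Atp5g2 -0.045 and Cox7a2 -0.25. After quantile normalization Sdhd was at -0.012 and Cox7a2 at -0.027, and after median centring, with or without the replicate block, at -0.029 and -0.031. Without both replicates 3, an alternative added after seeing the data, Cox6a2 was at 0.051. With arrays left out, the log2 difference ran from -0.16 to 0.21 for Sdhd, -0.24 to 0.10 for Sdhc, -0.057 to 0.50 for Uqcrh, -0.45 to 0.019 for Uqcrq, -0.022 to 0.41 for Cox8b, -0.0083 to 0.52 for Cox6c, -0.35 to 0.14 for Cox6a2, -0.18 to 0.22 for Cox7a2, -0.23 to 0.088 for Cox8a, -0.30 to 0.22 for Cox4i1, -0.43 to 0.11 for Ndufa4 and -0.23 to 0.18 for Cyc1. Genes that kept their direction over these arrays ran from 0.11 to 0.34 for Ndufa6, 0.044 to 0.30 for Ndufa7, -0.50 to -0.29 for Ndufa11, -0.64 to -0.15 for Ndufb7, 0.062 to 0.46 for Sdha, -0.62 to -0.069 for Sdhb, 0.0032 to 0.24 for Uqcr10, -0.25 to -0.021 for Uqcr11, -0.59 to -0.14 for Cox6a1, -0.39 to -0.038 for Cox4i2, 0.032 to 0.38 for Atp5pb, 0.015 to 0.37 for Atp5g2, -0.74 to -0.18 for Atp5g1, -0.48 to -0.12 for Atp5h, -1.09 to -0.019 for Ndufa4l2, 0.28 to 0.53 for Cox7a2l and -0.77 to -0.12 for Cycs.

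With the replicate number as a block, 0 of the 74 members were called. An unadjusted p under 0.05 was reached by 681 of the 8997 probe sets and, a smaller share, by 1 member. That member was Atp5g1, at a log2 difference of -0.48 with and without the block. Same-numbered arrays correlated at -0.11, -0.026 and 0.32 in their deviations from the group means over all probe sets. Wild-type replicates 1 and 2 each correlated best with a mutant array of another number. The main fit did not take the numbers as pairs, a choice that did not rest on these correlations. No such correlation was taken for the members alone. There the replicate number held a median 77.1% of the sum of squares, beside 38.9% over all probe sets. For these genes, whether the numbers pair the samples was not tested. Trend and probe-set averaging have no counterpart for the ratios, the filter on dim probe sets left out Cox8b, and the Cox7a1 to Cox7a2 ratio was not run. The brightness of the probe sets limits what can be read of dim members such as Cox4i2, Uqcrfs1 and Ndufa7.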
